A study of Mus musculus with 12 samples.

Results

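Neuropeptide precursor genes, 10 in number, were followed in sciatic dorsal root ganglia (DRG), namely Npy, Gal, Vip, Nts, Tac1, Calca, Calcb, Adcyap1, Cck and Vgf. They were chosen by gene name, all 10 are among the 44345 gene names of the count table, and 8 of the 10 had enough reads to be tested. Whole L4-L6 ganglia of C57BL/6 mice aged 5 to 8 weeks were collected from 4 groups of 3 samples, and each sample pooled the ganglia of 2 mice. Before surgery, mice spent 10 days in standard housing (SH) or in environmental enrichment (EE), which adds a running wheel, tunnels and nesting material. The sciatic nerve was then exposed only (SH Sham and EE Sham) or cut completely (sciatic nerve axotomy, giving SH SNA and EE + SNA), and ganglia were taken 24 h later. The paper describes EE Sham as an earlier dataset and the labels give no batch, so that in comparisons with EE Sham the dataset cannot be told apart from housing (against SH Sham), from axotomy (against EE + SNA) or from their interaction. EE + SNA was therefore also set against SH Sham and SH SNA, which use no sample of EE Sham. The paper speaks of a respective SH Sham for each condition, and the labels do not say which dataset the SH Sham samples come from. The part of the dataset in comparisons with SH Sham was not tested.

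Primary sensory neurons package peptides into dense core vesicles, together with the enzymes that cut each precursor to its active form, and release them from central and peripheral endings. In the intact ganglion, a class of small nociceptors makes substance P and neurokinin A from Tac1 and the calcitonin gene-related peptides (CGRP) from Calca and Calcb. A peripheral nerve injury is known to change this repertoire, with galanin, neuropeptide Y, VIP and PACAP among the peptides that axotomized neurons make anew or in larger amounts. NPY and galanin act largely on inhibitory receptors of the dorsal horn, and PACAP, encoded by Adcyap1, acts through receptors that raise cyclic AMP.

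At 24 h, the set divided by gene. Npy, Gal, Nts, Adcyap1 and Vgf rose after axotomy in both housings, and Tac1, Calca and Calcb passed the test in neither. Npy rose 8.29-fold in SH and 5.68-fold in EE. Without EE Sham sample 3, which stood apart, Npy rose 18.3-fold in EE, and the order of the housings turned. The 18.3-fold rests on EE Sham samples of only 2 and 10 reads. The highest SH Sham sample, with 38 reads beside 20 and 12, was kept in the 8.29-fold. Adcyap1 rose 2.35-fold and 2.07-fold. No member passed the adjusted threshold between housings, either without injury or after it. Vip and Cck stayed too low to test.

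A few facts of the libraries bear on these values. Reads on genes numbered 11343579 to 22871460 per sample. Atf3, a transcription factor that axotomized sensory neurons switch on, was checked against the labels, and had 110 to 168 CPM (counts scaled to library size) in the 6 sham samples and 453 to 548 CPM in the 6 injured ones. All 14 listed sensory neuron markers were tested, and their summed level was 10587 to 11450 CPM in SH Sham, 9684 to 10429 CPM in SH SNA, 10251 to 10547 CPM in EE Sham and 9904 to 10111 CPM in EE + SNA. Of these 14, 4 fell after SH SNA and 2 after EE + SNA against EE Sham, including Isl1 and Prdm12 in both, where 5.17% and 2.33% of all genes tested fell. Skeletal muscle markers summed to 749 CPM in SH SNA sample 2 and to at most 135 CPM elsewhere, and neutrophil markers summed to 608 CPM in EE + SNA sample 3 and to at most 261 CPM elsewhere. Summed levels of satellite glia and macrophage markers were higher in the injured samples without overlap. The 5 satellite glia markers summed to 1300 to 1457 CPM in SH Sham and 1516 to 1731 CPM in SH SNA, and to 1300 to 1434 CPM in EE Sham and 1566 to 1716 CPM in EE + SNA. Of them, Glul passed the test in both housings. The macrophage markers, of which 7 of 8 are in the table, summed to 47.6 to 51.3 CPM and 54.5 to 78.1 CPM in SH, and to 49.04 to 53.8 CPM and 56.01 to 83.6 CPM in EE. Of 6 Schwann cell markers, 0 passed the adjusted and 4 the unadjusted threshold in each housing, all higher. Of all genes tested, 25.2% in SH and 20.6% in EE passed the unadjusted threshold in either direction. The Schwann cell markers had median log2 fold changes of 0.27 in SH and 0.41 in EE. In EE + SNA against SH Sham, 3 of these 6 rose after adjustment, and all 6 passed the unadjusted threshold. Of all genes tested, 6.87% rose there after adjustment, and 27.2% passed the unadjusted threshold in either direction. Macrophage markers that rose after adjustment numbered 2 of 7 there, 1 in SH and 0 in EE. The part of these cells in the results was not tested. EE Sham sample 3 held reads of sympathetic neurons, so the fold changes and the share of Npy that rest on it are also given without it. In whole ganglia, fewer cells of a type and less RNA per cell cannot be told apart.

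The levels of the precursors spanned more than 4 orders of magnitude. On the length-scaled FPKM of the authors (fragments scaled to gene length and depth), Calca stood highest in SH Sham at 999 ± 46.9 (SD, n = 3), followed by Tac1 at 313 ± 23.8. Calcb at 89.1 ± 5.20 and Adcyap1 at 81.8 ± 1.73 overlapped between samples, and every other pair of neighbours in the order was separated in all 3 samples. Vgf stood at 58.7 ± 8.65, Gal at 29.9 ± 5.91, Nts at 10.4 ± 2.34 and Npy at 2.70 ± 1.58. Cck at 0.452 ± 0.0983 and Vip at 0.0619 ± 0.0726 were the least abundant.

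The order changed after axotomy. In SH SNA, Adcyap1 at 190 ± 9.11 FPKM (SD, n = 3) stood above Calcb at 89.9 ± 5.55 in every sample. Calcb, Vgf at 83.1 ± 9.73 and Gal at 71.5 ± 9.13 then formed a row of neighbours that overlapped, as did Nts at 26.8 ± 7.06 and Npy at 22.2 ± 3.67. Of the summed FPKM of the 10 genes, Calca took 63.0% in SH Sham and 57.7% in SH SNA, Adcyap1 5.16% and 10.4%, and Npy 0.170% and 1.21%. The same shares in EE Sham and EE + SNA were 63.3% and 57.5% for Calca, 5.74% and 10.3% for Adcyap1, and 0.177% and 0.892% for Npy. Without EE Sham sample 3, the share of Npy in EE Sham was 0.0526%.

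**Figure D1:**
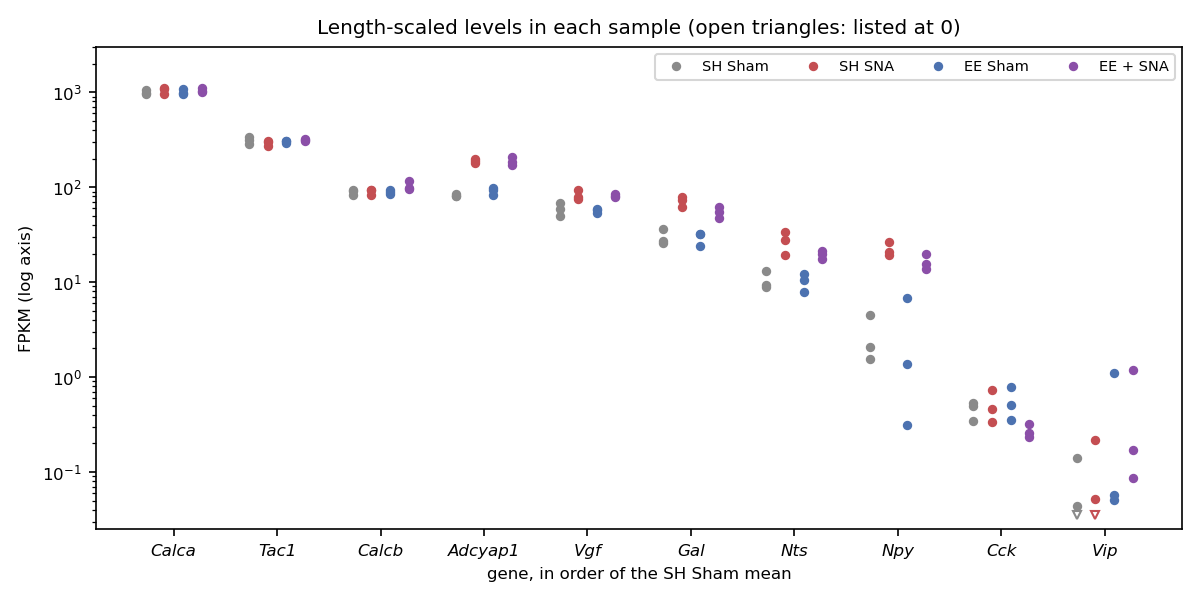
FPKM of the 10 precursors on a log axis, with 1 point per sample, groups by colour and genes in the order of their SH Sham mean. Calca lies near 1000 FPKM in all 4 groups, and Adcyap1, Vgf, Gal, Nts and Npy sit higher in both injured groups than in both sham groups.

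The first comparison asked which precursors change after axotomy in standard housing. Against SH Sham, 5 of the 8 tested members rose in SH SNA at an adjusted p under 0.05 (edgeR quasi-likelihood test, Benjamini-Hochberg over 16238 genes) and 0 fell, where 6.06% of all genes tested rose. In those 5 genes the 3 injured samples all lay above the 3 sham samples, and 29.4% of all genes tested had groups that did not overlap in either direction. The median log2 fold change of the 8 members was 0.87, beside 0.00 for all genes tested.

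Npy encodes neuropeptide Y (chr6:49822710-49829507, plus strand, GRCm38). It was counted at 1.17, 0.860 and 2.54 CPM in SH Sham and at 15.0, 11.1 and 11.8 CPM in SH SNA. Every injured sample stood several times above the highest sham sample. The rise was 3.05 on the log2 scale (SE 0.26, 95% interval 2.47 to 3.63, edgeR adjusted p = 1.72e-05), a size exceeded by under 0.1% of the genes tested. These values rest on 12 to 38 reads per sham sample and 132 to 196 reads per injured sample.

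Gal encodes galanin (chr19:3409915-3414544, minus strand). Its level was 18.6, 19.1 and 26.0 CPM in SH Sham and 52.1, 44.5 and 57.0 CPM in SH SNA. The groups were well apart, and the log2 fold change was 1.27 (SE 0.13, 95% interval 0.998 to 1.55, edgeR adjusted p = 5.40e-05).

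Nts encodes neurotensin (chr10:102481756-102490486, minus strand). SH Sham samples had 11.02, 10.3 and 15.4 CPM, and SH SNA samples 39.3, 33.1 and 22.8 CPM. The injured samples were spread more widely than the sham samples, with the lowest still above all of them. The log2 fold change was 1.38 (SE 0.19, 95% interval 0.97 to 1.79, edgeR adjusted p = 0.000542).

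Adcyap1 encodes the precursor of PACAP (chr17:93199017-93206537, plus strand). It was the most abundant of the precursors that rose, with 176, 168 and 168 CPM in SH Sham and 418, 384 and 399 CPM in SH SNA. Replicates lay close together, and among all genes tested only 3 had a smaller p. The log2 fold change was 1.23 (SE 0.055, 95% interval 1.11 to 1.35, edgeR adjusted p = 1.33e-07).

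Vgf encodes a neurotrophin-inducible precursor of the granin kind (chr5:137026392-137033351, plus strand). It went from 129, 148 and 172 CPM in SH Sham to 194, 243 and 203 CPM in SH SNA. The lowest injured sample exceeded the highest sham sample by less than the spread within either group. Its log2 fold change of 0.52 was the smallest of the 5 (SE 0.10, 95% interval 0.30 to 0.74, edgeR adjusted p = 0.00575).

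The precursors of the intact peptidergic nociceptor did not pass the test, and their intervals were narrow. Calca makes calcitonin or CGRP by alternative splicing (chr7:114631478-114636357, minus strand), and reads per gene do not separate these products. It had 1461, 1415 and 1552 CPM in SH Sham and 1621, 1681 and 1428 CPM in SH SNA, with a log2 fold change of 0.10 (95% interval −0.06 to 0.25, edgeR adjusted p = 0.445). Tac1, the substance P precursor (chr6:7554879-7565834, plus strand), had 348, 295 and 326 CPM against 317, 312 and 285 CPM, a log2 fold change of −0.08 (95% interval −0.23 to 0.07, edgeR adjusted p = 0.504). The groups overlapped for both. Calcb makes the second CGRP (chr7:114718643-114723365, plus strand), with 118, 104 and 115 CPM against 106, 120 and 117 CPM. Its log2 fold change was 0.03 (95% interval −0.11 to 0.17, edgeR adjusted p = 0.854).

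Calca and Calcb are near neighbours on chromosome 7 and closely related copies. The longest run of bases that any of their annotated transcripts share is 61, shorter than the 100-base reads, so a full-length exonic read differs between them. No exon base of the 10 genes lies in an exon of another annotated gene on either strand.

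**Figure D2:**
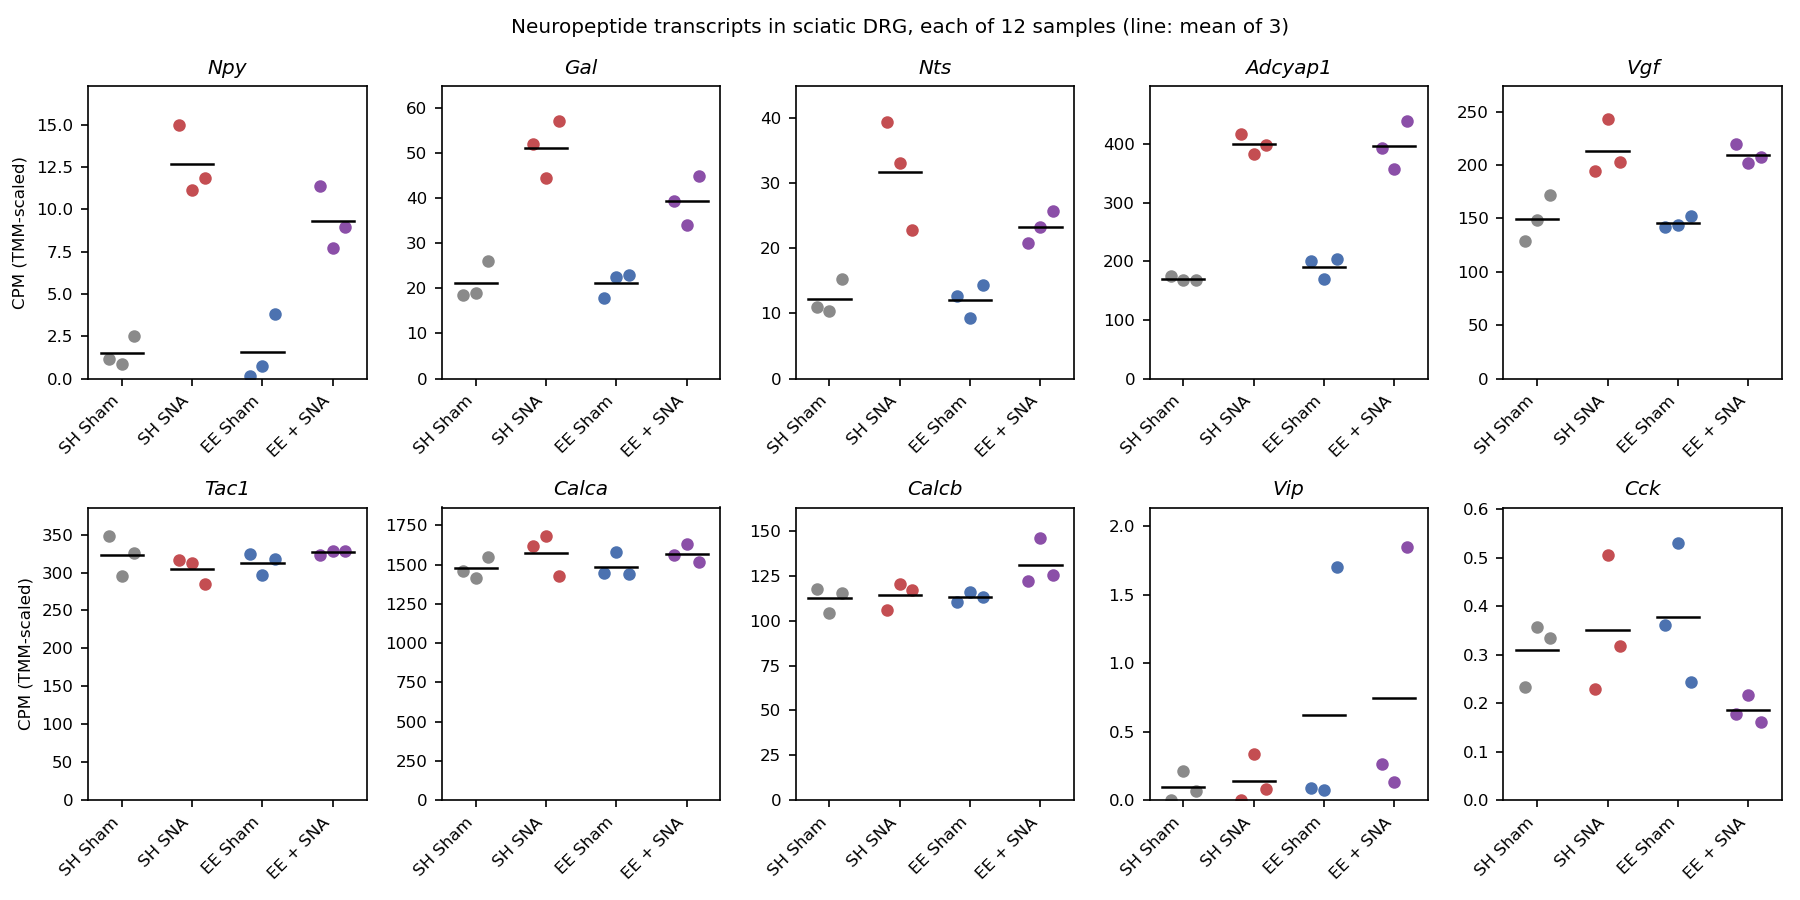
Level of each precursor in CPM in the 12 samples, with 1 point per sample and a line at the mean of 3. Npy, Gal, Nts, Adcyap1 and Vgf separate injured from sham samples in both housings, Tac1, Calca and Calcb stay close to their sham levels, and Vip stands out in 1 EE Sham and 1 EE + SNA sample.

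The same genes rose after axotomy in enriched mice, in a comparison where injury and dataset cannot be told apart. Against EE Sham, 5 of the 8 tested members rose in EE + SNA at an adjusted p under 0.05 and 0 fell, where 2.51% of all genes tested rose. Groups did not overlap in 6 members, the 5 and Calcb, beside 25.8% of all genes. The median log2 fold change was 0.70 over the members and 0.00 over all genes tested.

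Adcyap1 rose from 200, 169 and 203 CPM in EE Sham to 394, 357 and 440 CPM in EE + SNA. The log2 fold change was 1.05 (SE 0.089, 95% interval 0.86 to 1.25, edgeR adjusted p = 0.000103). Gal rose from 17.8, 22.4 and 23.0 CPM to 39.5, 34.0 and 44.9 CPM, by 0.88 on the log2 scale (SE 0.12, 95% interval 0.62 to 1.15, edgeR adjusted p = 0.00176). In both genes the lowest injured sample was well above the highest sham sample.

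Nts had 12.7, 9.25 and 14.4 CPM in EE Sham and 20.9, 23.3 and 25.7 CPM in EE + SNA. Its log2 fold change was 0.94 (SE 0.14, 95% interval 0.63 to 1.25, edgeR adjusted p = 0.00293). Vgf had 142, 144 and 152 CPM in EE Sham and 219, 202 and 208 CPM in EE + SNA, with less spread than in SH. The log2 fold change of Vgf was 0.51 (SE 0.065, 95% interval 0.37 to 0.66, edgeR adjusted p = 0.00101), close to that in SH.

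Npy varied widely between the EE Sham samples. Its level was 0.180, 0.758 and 3.81 CPM in EE Sham, from 2, 10 and 47 reads, and 11.4, 7.69 and 8.94 CPM in EE + SNA. All injured samples were above all sham samples, but the third sham sample stood apart from the rest of its group. The log2 fold change was 2.51 (SE 0.50, 95% interval 1.42 to 3.59, edgeR adjusted p = 0.0138). Without EE Sham sample 3 it was 4.19 (edgeR adjusted p = 0.000934), and without EE + SNA sample 1 it was 2.35 and lost the call (edgeR adjusted p = 0.0521). With DESeq2 the change was 2.55, with an adjusted p = 0.134.

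Among the nociceptor precursors, Calcb had 111, 116 and 113 CPM in EE Sham and 122, 146 and 125 CPM in EE + SNA. All 3 injured samples were higher, by 0.21 on the log2 scale (95% interval 0.04 to 0.38), and the difference passed the unadjusted threshold (unadjusted p = 0.0205) and not the adjusted one (edgeR adjusted p = 0.153). Calca had 1444, 1580 and 1440 CPM against 1563, 1634 and 1515 CPM (log2 fold change 0.07, 95% interval −0.07 to 0.21). Tac1 had 324, 296 and 318 CPM against 324, 329 and 329 CPM (log2 fold change 0.06, 95% interval −0.07 to 0.19). The groups overlapped for both genes.

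EE + SNA was also set against SH Sham, since the paper compared each condition with its respective SH Sham. Again 5 of the 8 tested members rose, where 6.87% of all genes tested rose, with log2 fold changes of 2.59 for Npy, 1.22 for Adcyap1, 0.93 for Nts, 0.88 for Gal and 0.49 for Vgf. The edgeR adjusted p ranged from 1.72e-06 for Adcyap1 to 0.00366 for Vgf. Calcb was higher by 0.22 (95% interval 0.06 to 0.39, edgeR adjusted p = 0.0809). This comparison shares its controls with that of SH SNA and its injured samples with that of EE Sham, so it is no separate support for either.

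**Figure D3:**
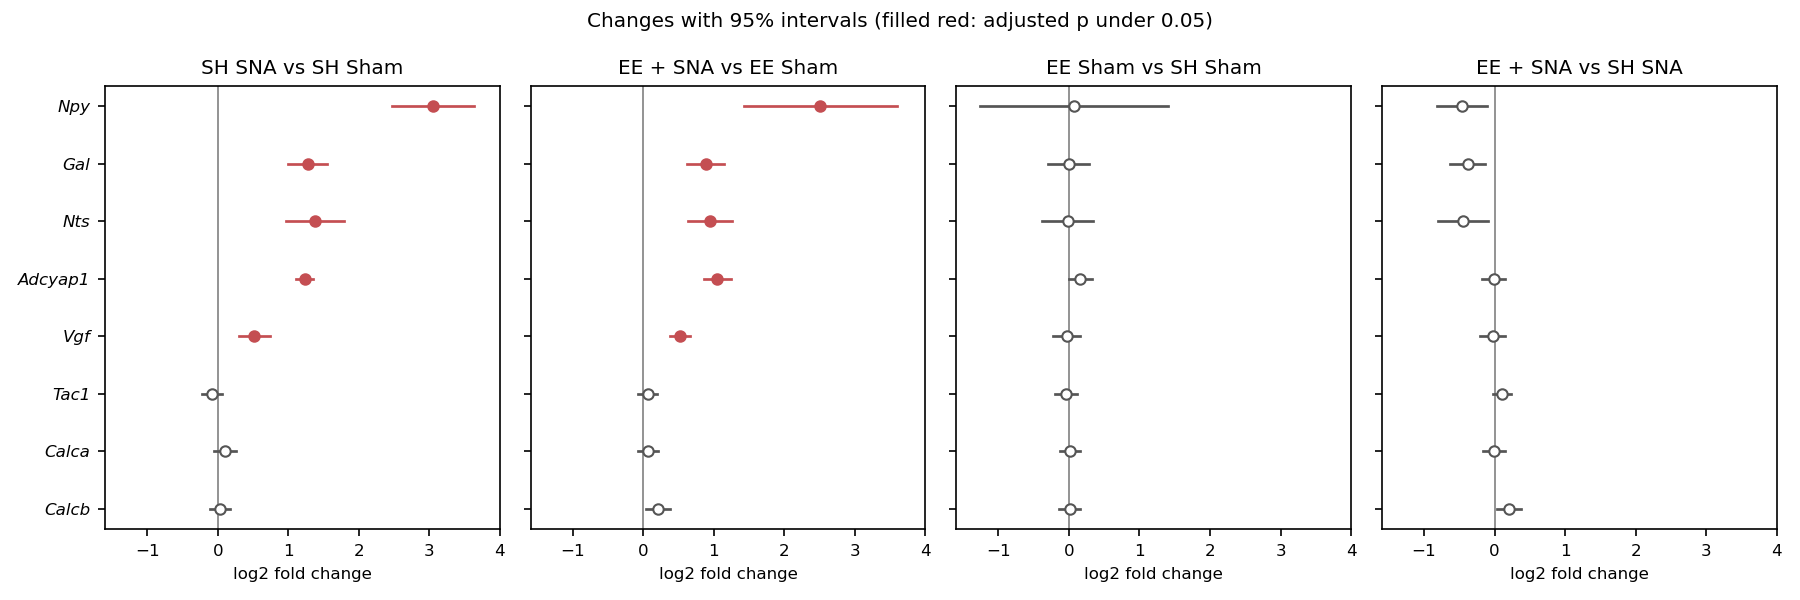
Log2 fold changes of the 8 tested precursors with 95% intervals in 4 comparisons, where filled red points passed an adjusted p of 0.05 and open points did not. Npy, Gal, Nts, Adcyap1 and Vgf lie to the right of 0 after axotomy in both housings, and no precursor is filled in either comparison of housings.

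Summed over Npy, Gal, Nts, Adcyap1 and Vgf, the level was 184 ± 16.7 FPKM (SD, n = 3) in SH Sham, 394 ± 12.5 in SH SNA, 190 ± 15.4 in EE Sham and 360 ± 27.3 in EE + SNA. Over Tac1, Calca and Calcb, it was 1401 ± 63.9, 1441 ± 98.9, 1390 ± 64.9 and 1464 ± 65.3 FPKM. Because the genes were split by their result, these sums are a description and were not tested. The first sum was below the second in every sample, while Adcyap1 alone stood above Calcb in every sample of both injured groups.

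The next comparison asked whether the precursors differed between housings without injury, where dataset and housing cannot be told apart. Between EE Sham and SH Sham, 0 of the 8 tested members passed the adjusted threshold in edgeR or DESeq2, beside 0.00616% of all genes tested, and 0 passed the unadjusted one, beside 2.97%. The 2 groups overlapped in all 8 members, where 7.6% of all genes had groups that did not. For Adcyap1, the difference of 0.16 on the log2 scale (95% interval 0.00 to 0.32) had an unadjusted p of 0.0508, and of 0.0207 with the sample number as a block (edgeR adjusted p = 0.807).

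For the other precursors the intervals limit the difference between EE Sham and SH Sham, which holds housing and dataset together. They ran from −0.29 to 0.28 for Gal, from −0.39 to 0.35 for Nts, from −0.23 to 0.16 for Vgf, from −0.20 to 0.11 for Tac1, from −0.13 to 0.15 for Calca and from −0.14 to 0.16 for Calcb, all on the log2 scale. Npy had an interval of −1.26 to 1.41, too wide to say more. Its log2 difference was 0.08 with all samples and −1.61 without EE Sham sample 3 (unadjusted p = 0.0185, edgeR adjusted p = 0.9999).

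After axotomy, housing was compared between EE + SNA and SH SNA. Here 0 of the 8 tested members passed the adjusted threshold in edgeR or DESeq2, as did 0.0% of all genes in edgeR. At the unadjusted threshold of the study, 4 members passed, beside 4.1% of all genes tested. Gal was lower in EE + SNA by 0.38 on the log2 scale, with a log2 fold change of −0.38 (95% interval −0.63 to −0.14, unadjusted p = 0.00543). Npy had −0.46 (95% interval −0.81 to −0.11, unadjusted p = 0.0151) and Nts −0.45 (95% interval −0.80 to −0.09, unadjusted p = 0.0184), and Calcb was higher at 0.20 (95% interval 0.03 to 0.37, unadjusted p = 0.0243). For these 4 genes the edgeR adjusted p was 0.989.

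The values of the injured samples of Gal, Npy and Nts overlapped between housings, in each gene by 1 or 2 samples. The lowest SH SNA sample of Gal, at 44.5 CPM, lay just under the highest EE + SNA sample at 44.9 CPM. For Npy, EE + SNA sample 1 at 11.4 CPM was above the lowest SH SNA sample at 11.1 CPM. Groups did not overlap for Calcb and Tac1, both higher in EE + SNA, beside 10.4% of all genes, and Tac1 had a log2 difference of 0.10 (95% interval −0.02 to 0.23). Adcyap1 differed by −0.01 (95% interval −0.18 to 0.15), Vgf by −0.03 (95% interval −0.20 to 0.15) and Calca by −0.01 (95% interval −0.17 to 0.15).

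Whether the change after axotomy differed between housings was tested with the interaction term over all 12 samples. In this test 0 of 8 members passed the adjusted threshold, beside 0.0% of all genes tested, and 0 passed the unadjusted one, beside 2.61%. DESeq2 called 0 members too. The rise of Gal was smaller in EE by 0.38 on the log2 scale, an interaction of −0.38 (95% interval −0.79 to 0.04, unadjusted p = 0.0718). The interaction was −0.43 for Nts (95% interval −1.004 to 0.15), −0.17 for Adcyap1 (95% interval −0.41 to 0.07), 0.01 for Vgf (95% interval −0.28 to 0.29) and 0.19 for Calcb (95% interval −0.03 to 0.42). For Npy it was −0.54 with an interval of −2.01 to 0.94, and it turned to 1.16 without EE Sham sample 3.

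**Figure D4:**
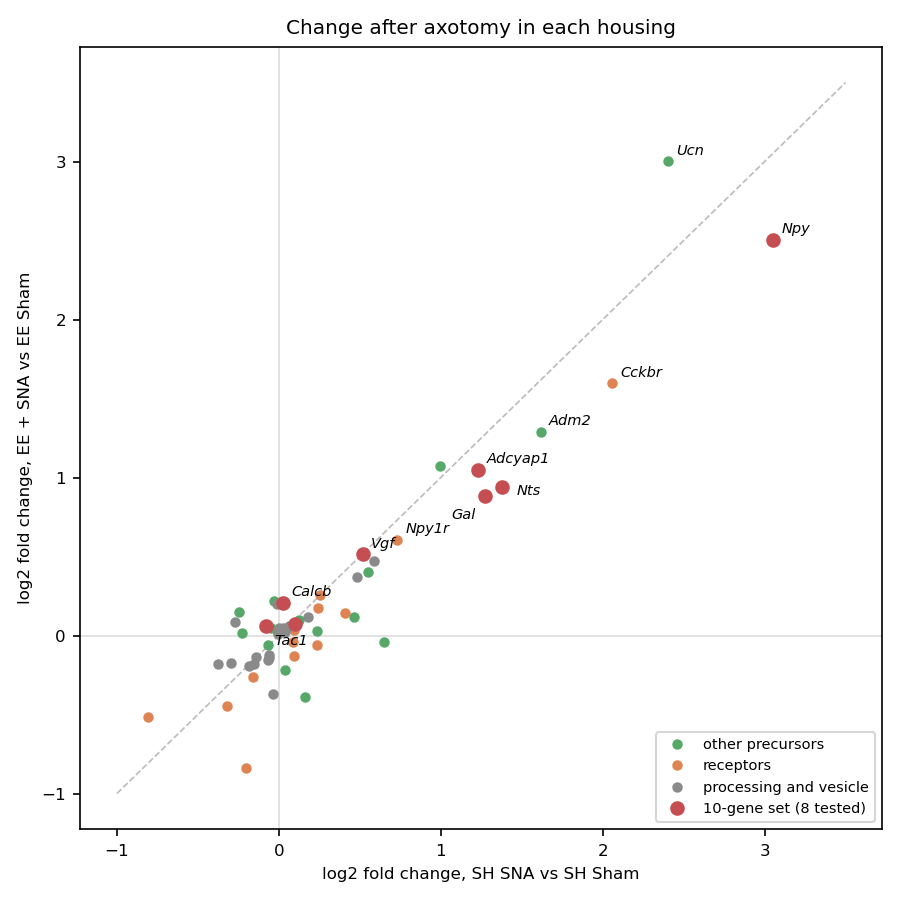
Log2 fold change after axotomy in SH on the x axis and in EE on the y axis, with 1 point per tested gene, for the precursors and 3 lists of related genes, and a dashed line where both are equal. Npy, Gal, Nts and Adcyap1 lie below the line and Vgf on it, but no interaction of a precursor passed the test, and without EE Sham sample 3 Npy moves above the line, to 4.19 on the y axis.

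EE Sham sample 3 carried reads of sympathetic neurons, which use NPY as a cotransmitter. Dbh, the enzyme that makes noradrenaline, had 62 reads there and 0 to 6 in the other 11 samples. Slc6a2, the noradrenaline transporter, had 66 reads beside 0 to 9. The same sample had 47 reads of Npy, where the other EE Sham samples had 2 and 10. All 8 listed sympathetic markers together summed to 83.2 CPM in this sample and to 51.5 to 75.3 CPM in the others, a sum held mainly by Th, which a class of touch neurons of the ganglion also makes. The part of these cells in the level of Npy was not tested.

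Vip encodes vasoactive intestinal peptide (chr10:5639218-5647617, plus strand) and was not tested. It had 0, 3 and 1 reads in SH Sham, 0, 4 and 1 in SH SNA, 1, 1 and 21 in EE Sham, and 3, 3 and 23 in EE + SNA. The sum over SH Sham was 0.0876 RPM (reads scaled to the total on genes, exact Poisson 95% interval 0.0239 to 0.224) and over SH SNA 0.133 (0.0432 to 0.311). These intervals cover counting error only and overlap, so a rise at 24 h in SH was not detectable at this depth. Where the count was 0, the interval reached up to 0.217 RPM in SH Sham sample 1 and 0.283 in SH SNA sample 1.

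Most reads of Vip fell on 2 samples. EE Sham sample 3 had 1.71 RPM (exact Poisson 95% interval 1.06 to 2.62) and EE + SNA sample 3 had 1.83 (1.16 to 2.74). In the first, the sympathetic markers were high as given above, and in the second Dbh had 5 reads and Slc6a2 had 9. Both enriched groups therefore owed their mean of Vip to 1 sample each, and their other 4 samples had 1 to 3 reads.

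**Figure D5:**
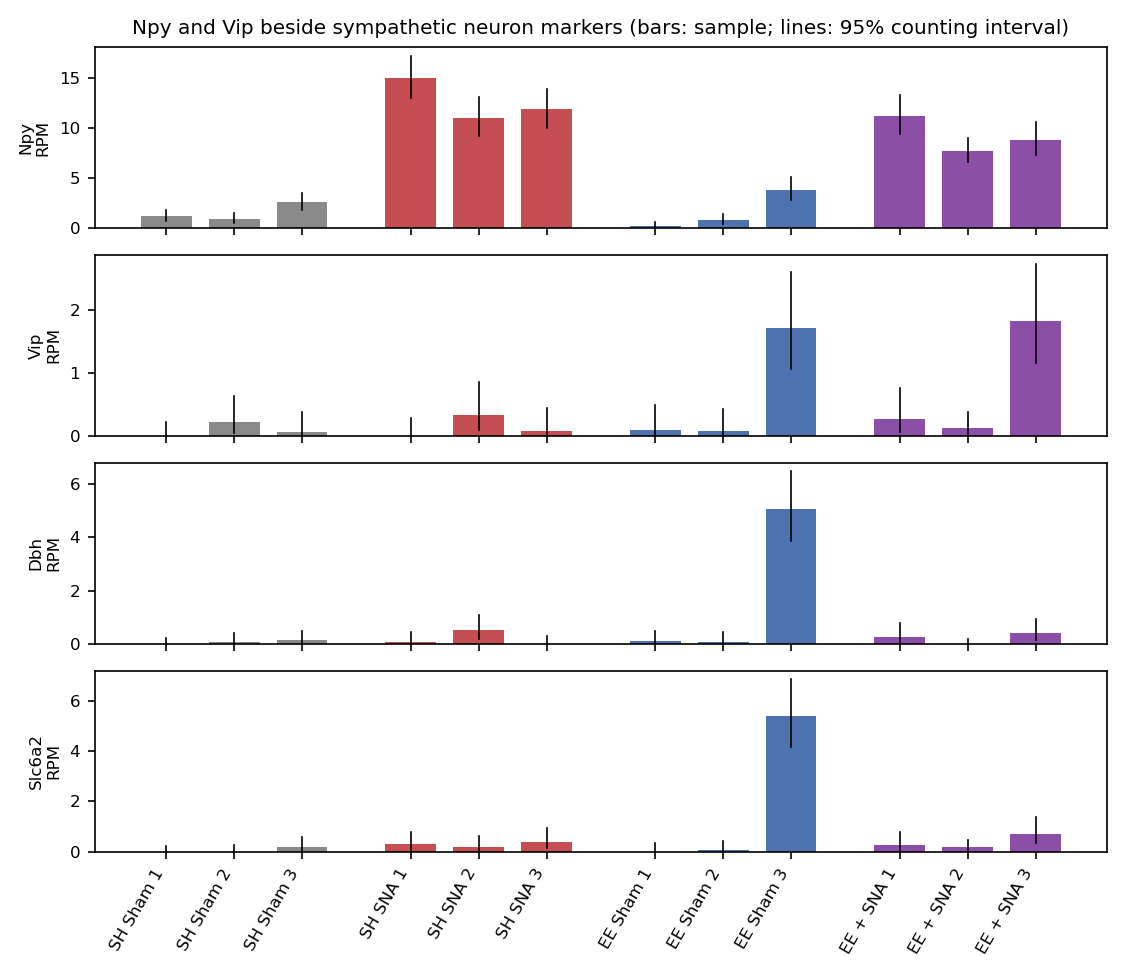
Npy, Vip and the sympathetic neuron markers Dbh and Slc6a2 in RPM, with 1 bar per sample and its exact Poisson 95% interval as a line. EE Sham sample 3 has the highest bar for both markers and the highest Npy of the 6 sham samples, and shares high Vip with EE + SNA sample 3.

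Cck encodes cholecystokinin (chr9:121489824-121495694, minus strand) and had 2 to 7 reads in every sample. Over the 3 samples of a group, it was counted at 0.307 RPM in SH Sham (exact Poisson 95% interval 0.168 to 0.514), 0.346 in SH SNA (0.184 to 0.592), 0.383 in EE Sham (0.209 to 0.642) and 0.192 in EE + SNA (0.0878 to 0.365). The intervals overlap, and no change was detectable at this depth.

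Because 5 precursors moved together and 3 did not, the sequence just before their start sites was read for motifs of factors linked to nerve injury or to neuropeptide genes. RefSeq windows (GRCm38.p6) were found for 8 of the 10 genes, with 2 start sites for Adcyap1. Vgf and Calcb had none. The 250 bases before each start were searched on both strands for TGACGTCA (the cyclic AMP response element), its variant TGACGCAA, TGANTCA (bound by AP-1), CACGTG (the E-box) and TTCNNNGAA (bound by STAT factors). These motifs do not overlap one another in the genes shown.

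The sequences of 4 windows are printed 5′ to 3′ in the direction of the gene, with matches in capitals, since they hold a precursor that rose without a match, one that rose with a match, and the pair that did not rise and shared a rare match. Bases that GENCODE places in an exon of another start site were left off.
Npy, chr6:49822460-49822709, plus strand: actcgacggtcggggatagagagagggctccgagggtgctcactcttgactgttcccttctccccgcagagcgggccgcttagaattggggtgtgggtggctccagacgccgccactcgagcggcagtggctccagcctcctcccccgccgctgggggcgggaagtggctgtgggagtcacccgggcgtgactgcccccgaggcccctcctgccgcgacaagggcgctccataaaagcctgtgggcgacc
Nts, chr10:102490487-102490668, minus strand: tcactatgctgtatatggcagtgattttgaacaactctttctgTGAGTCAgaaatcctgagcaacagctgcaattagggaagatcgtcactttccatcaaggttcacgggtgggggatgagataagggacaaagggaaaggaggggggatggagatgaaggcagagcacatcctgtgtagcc
Tac1, chr6:7554811-7554878, plus strand: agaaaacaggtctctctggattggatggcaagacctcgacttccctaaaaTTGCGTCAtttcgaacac
Calca, chr7:114636358-114636607, minus strand: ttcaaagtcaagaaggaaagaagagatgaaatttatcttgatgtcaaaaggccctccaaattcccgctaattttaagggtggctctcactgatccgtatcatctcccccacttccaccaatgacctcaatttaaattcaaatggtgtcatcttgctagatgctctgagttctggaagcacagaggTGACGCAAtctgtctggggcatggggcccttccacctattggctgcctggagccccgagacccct

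The 4 windows differ in what they hold. Nts has TGAGTCA, an AP-1 match that starts 207 bases before the start site, and 6.75% of all 32851 windows hold 1 or more such matches. Tac1 and Calca both have the response element variant, which 0.438% of all windows hold, 200 and 65 bases before the start, and in Tac1 it lies on the other strand as TTGCGTCA. Tac1 and Cck also have an E-box, found in 6.02% of windows, at 61 and 66 bases. The windows of Npy, Gal, Vip and Adcyap1 hold none of the 5 motifs, and no member holds the full response element (1.55% of windows) or the STAT motif (7.02%). A match is a description of letters, and the 4 tested precursors with a window that rose have no match in common.

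The receptors that these peptides act on were read from a list of 23 genes, of which 21 are in the table and 13 were tested. After SH SNA, 2 rose and 0 fell, and the same 2 rose after EE + SNA against EE Sham, where 6.06% and 2.51% of all genes tested rose. The median log2 fold change over the 13 was 0.10 and −0.04. Cckbr, the brain-type receptor of cholecystokinin, had 1.76 to 2.72 CPM in SH Sham, 8.35 to 10.7 CPM in SH SNA, 1.59 to 2.79 CPM in EE Sham and 6.48 to 8.45 CPM in EE + SNA. Its log2 fold changes were 2.06 (SE 0.18, edgeR adjusted p = 1.67e-05) and 1.60 (SE 0.22, edgeR adjusted p = 0.00155). Its ligand Cck stayed at 2 to 7 reads per sample.

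Npy1r, an inhibitory receptor of NPY, had 46.5 to 48.7 CPM in SH Sham and 67.2 to 87.8 CPM in SH SNA. In EE Sham it had 46.9 to 54.1 CPM and in EE + SNA 74.8 to 83.0 CPM. The log2 fold changes were 0.73 (SE 0.086, edgeR adjusted p = 0.000198) and 0.61 (SE 0.076, edgeR adjusted p = 0.000922). The receptors of galanin (Galr1 and Galr2), of PACAP (Adcyap1r1) and of CGRP (Calcrl and Ramp1) were tested and did not pass in either comparison.

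Of 31 other peptide precursors listed, 15 were tested. In each housing 2 rose and 0 fell, where 6.06% of all genes tested rose in SH and 2.51% in EE, with a median log2 fold change of 0.16 in SH and 0.10 in EE. Adm2, which encodes intermedin of the CGRP family, had 9 to 13 reads per sample in SH Sham and 21 to 31 in SH SNA (log2 fold change 1.62, SE 0.29, edgeR adjusted p = 0.00301), and its change in EE was 1.29 (edgeR adjusted p = 0.0199). Ucn, the urocortin precursor, had 1 to 4 reads in SH Sham, 4 to 17 in SH SNA, 0 to 2 in EE Sham and 7 to 18 in EE + SNA. The log2 fold changes of Ucn were 2.40 (SE 0.65, edgeR adjusted p = 0.0317) and 3.002 (SE 0.65, edgeR adjusted p = 0.0213), and with so few reads they depend on the prior count of the fit.

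Of 20 genes for precursor processing and dense core vesicles, all tested, 2 rose and 2 fell after SH SNA. Of all genes tested, 6.06% rose and 5.17% fell, and the median log2 fold change of the 20 was −0.02. Pcsk1, the convertase that cuts many of these precursors, rose by 0.48 (SE 0.056, edgeR adjusted p = 0.000161) from 63.6 to 70.4 CPM in SH Sham to 92.0 to 94.8 CPM in SH SNA. Syt4, a synaptotagmin of dense core vesicles, rose by 0.59 (SE 0.074, edgeR adjusted p = 0.000308). The granins Chga and Chgb, which are cargo of the vesicles like the product of Vgf, went the other way, with log2 fold changes of −0.37 (edgeR adjusted p = 0.00301) and −0.30 (edgeR adjusted p = 0.0308). The secretogranins Scg2, Scg3 and Scg5, also listed, did not pass. Their means were 454, 839 and 81.2 CPM in SH Sham and 454, 804 and 80.9 CPM in SH SNA.

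In EE + SNA against EE Sham, Pcsk1 rose by 0.37 and Syt4 by 0.47 (edgeR adjusted p = 0.0166 and 0.00717). None of the 20 fell there, where 2.33% of all genes tested fell, and the edgeR adjusted p was 0.234 for Chga and 0.275 for Chgb. Of the 6 peptidergic nociceptor markers, 1 rose and 0 fell in each housing, where 6.06% of all genes tested rose in SH and 2.51% in EE. Gfra3, the artemin coreceptor, rose by 0.41 in SH (edgeR adjusted p = 0.00949) and 0.42 in EE (edgeR adjusted p = 0.00433). Of the 5 nonpeptidergic nociceptor markers, 0 rose, 2 fell in SH and 1 in EE. Of all genes tested, 5.17% and 2.33% fell, and the median log2 fold change of the 5 was −0.18 and −0.15. Mrgprd had −0.48 in SH and −0.47 in EE (edgeR adjusted p = 0.00156 and 0.0349), and Gfra2 had −0.39 and −0.38 (edgeR adjusted p = 0.0379 and 0.0698). P2rx3 had 0.19 in SH, past the unadjusted threshold only (unadjusted p = 0.0278), and −0.0012 in EE.

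The genes whose log2 CPM followed each precursor most closely over the 12 samples were read from 15332 genes. The points share the same 4 groups, so a high r follows from any shared change after axotomy. Adcyap1 was nearest to Flrt3 (Pearson r = 0.996), Srxn1 and Rnf122. Gal was nearest to Adam8 (0.978), Dhrs1 and Hn1, Nts to Stac (0.965), D3Bwg0562e and Gap43, and among the genes nearest to Npy were Rgs20 (0.951) and Acvr1c. Vgf was nearest to Pi4k2a (0.964), Mkl1 and Sqstm1. The precursors that did not pass had looser neighbours, with Gpr45 for Tac1 (0.919), Plcxd1 for Calca (0.907) and Golga7b for Calcb (0.844).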

How the data were processed

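RNA of whole sciatic DRG was sequenced by the authors (TruSeq mRNA kit, paired reads of 100 cycles), aligned to mm10 with TopHat 2.0.12 and Bowtie2 2.2.3, and counted per gene name with HTSeq. The strand setting is not given in the sources used here. The deposited table holds whole read counts, not normalized. HTSeq assigned 46.7% to 47.6% of alignments to no gene and left out 8.49% to 9.28% as not unique. The deposited FPKM, which the authors scaled by length and depth, were used for levels between genes and matched the counts of each member within 0.0635%.

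The members and lists were chosen with earlier results of these data known. All 10 members are named, and from each list those called after axotomy in either housing, up to 6. A few genes met by these rules were left out of the text. Counts were given TMM factors with edgeR 4.0.16 (R 4.3.3), filtered with filterByExpr (10 counts, total 15) and tested with glmQLFit and the quasi-likelihood F test, two-sided, on the 6 samples of each pair of groups, or on all 12 for the interaction. Genes were called at a Benjamini-Hochberg adjusted p of 0.05 over the 16238 genes tested, and the unadjusted 0.05 of the study is given beside it. CPM are TMM-scaled, and SE and 95% intervals come from the fit. The test was checked on counts simulated with the same dispersion for every gene. That check does not cover genes that vary as widely as Npy in EE Sham. The alternatives were the likelihood ratio test, DESeq2 1.42.0, scaling by library size, no filter, a filter of 10 counts in every sample, 1 fit of all samples, the replicate number as a block, limma 3.58.1 on log2 of FPKM plus 1 or 0.1, and leaving out each sample.

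Between SH Sham and EE Sham, deviations from the group mean had r of 0.333, 0.132 and 0.125 in samples of the same number. EE Sham sample 2 and SH Sham sample 3, of unlike number, had r of 0.197. These r cannot settle whether the numbers are pairs, so the main fits used no block. Genes were placed with GENCODE M21 (GRCm38, the same build as mm10). No protein table was at hand, so precursor proteins are not shown. Plots were made with Matplotlib.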

Additional observations from a re-analysis of the deposited data

How the results depend on the processing

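The number of members called was 5 after SH SNA (4 to 5 under the alternatives and with each sample left out), 5 after EE + SNA against EE Sham (4 to 6) and 5 against SH Sham (4 to 6). The filter of 10 counts in every sample gave 4 in all 3, because it removes Npy. The number was 0 between housings and for the interaction under every setting run, except that the unadjusted threshold gave 4 for EE + SNA against SH SNA. Single calls changed for Npy in EE + SNA against EE Sham, which was lost with DESeq2, with log2(FPKM + 0.1) (3.34, limma adjusted p = 0.0806) and without EE + SNA sample 1, and for Calcb in EE + SNA against SH Sham, which passed with no filter (0.20, edgeR adjusted p = 0.0368). With the replicate number as a block no member's call changed, while 29 genes in place of 1 were called between EE Sham and SH Sham. In the other comparisons 1 or more pairs of the same number had r under 0.1 (lowest −0.229, −0.139, −0.171 and 0.0529), and the block called 1924 genes after SH SNA, 887 after EE + SNA against EE Sham and 1474 against SH Sham.

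Signs that turned belong to differences that did not pass the adjusted threshold in any setting, and the cause was not tested. Npy in EE Sham against SH Sham passed the unadjusted threshold without EE Sham sample 3, as given above. Tac1 in EE + SNA against SH Sham gave −0.0016 with library size and −0.0034 with no filter. In EE Sham against SH Sham, Calcb gave −0.0013 with library size, −0.0011 with no filter, −0.00031 with log2(FPKM + 1) and −0.00031 with log2(FPKM + 0.1), Calca gave −5.5e-05 and −5.6e-05 with the FPKM, and Npy gave −0.069 with the replicate block, −0.28 with log2(FPKM + 1) and −0.66 with log2(FPKM + 0.1). In the interaction, Vgf gave −0.00045 with DESeq2 and Npy 0.21 with log2(FPKM + 0.1). With 1 sample left out, log2 values in EE Sham against SH Sham ran from −1.61 to 0.64 for Npy, −0.097 to 0.16 for Gal, −0.16 to 0.17 for Nts, −0.13 to 0.075 for Vgf, −0.11 to 0.0077 for Tac1, −0.039 to 0.048 for Calca and −0.040 to 0.042 for Calcb. They ran from −0.021 to 0.078 for Calcb in SH SNA against SH Sham and from −0.042 to 0.068 for Tac1 in EE + SNA against SH Sham. In EE + SNA against SH SNA they ran from −0.092 to 0.061 for Adcyap1, −0.072 to 0.038 for Calca and −0.091 to 0.072 for Vgf, and in the interaction from −1.10 to 1.16 for Npy, −0.084 to 0.028 for Calca and −0.10 to 0.11 for Vgf. Depth limits Npy in sham samples, Vip, Cck and Ucn.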
